A study of Mus musculus with 8 samples.

Results

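Genes that mark adipocytes or encode adipokines were followed in RNA-sequencing of whole aortic tissue from mice infused with angiotensin II. The group holds 8 of the 35896 genes in the deposited table. Lep, Adipoq, Retn, Fabp4, Plin1, Pparg and Lpl were chosen by their function. Nnat was added because it had the smallest FDR (p-value adjusted by the Benjamini-Hochberg method) when AngII+2W was compared with CTRL. The values that chose it were a log2 fold change of -2.87 (AngII+2W minus CTRL), a p of 2.58e-05 and an FDR of 0.174. That adjusted p of edgeR's quasi-likelihood test was shared by 71 genes. The next gene in the ranking was Dnajb5, with an unadjusted p of 4.23e-05 and a log2 fold change of -1.51. Measures of Nnat that share a library with that comparison are therefore given as a description, as are the values of all 8 genes in AngII+2W against CTRL.

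Male C57BL6 mice gave 8 libraries in 4 groups of 2 (CTRL, AngII, AngII+2W and AngII+3W). Each library was made from pooled aortic tissue of 2 mice, 16 mice in all. Only a part of each aorta was frozen for RNA, and the paper does not state which stretch. AngII (angiotensin II, a peptide that constricts vessels and raises blood pressure) was given by osmotic minipump at 2.8 mg/kg/d for 2 weeks, starting at 11 weeks of age. Mice of the AngII group were sacrificed when the infusion ended, those of AngII+2W 2 weeks later and those of AngII+3W 3 weeks later. CTRL mice were untreated littermates of the same age, and the labels do not give the time point at which those of these libraries were sacrificed. All mice were of a wild-type strain, and no group carried an engineered allele. The libraries were made from whole tissue and not from sorted cells, so that fewer cells of a type and less RNA per cell cannot be told apart.

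White adipocytes store triglyceride in a single large droplet and release hormones, the adipokines, into the blood. PPARγ, encoded by Pparg, is the nuclear receptor that drives adipocyte differentiation. Lipoprotein lipase (Lpl) frees fatty acids from circulating lipoproteins, FABP4 carries them in the cytoplasm, and perilipin 1 (Plin1) coats the lipid droplet and limits its breakdown. Leptin (Lep) signals the size of the fat stores to the brain, adiponectin (Adipoq) raises insulin sensitivity, and resistin (Retn) opposes insulin action in mice. Neuronatin (Nnat) is a small membrane protein of the endoplasmic reticulum, expressed in brain and in endocrine and adipose tissue from the paternal allele alone. The mouse aorta is surrounded by perivascular fat, which is brown-like around its thoracic stretch.

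The promoters of the 4 genes on which the account turns most are given here, for the hormone that varied most (Lep), the member whose level varied least (Adipoq), the member nearest to the threshold of the test (Retn) and the member chosen by its FDR (Nnat). Each runs from 250 bases before to 50 bases after the RefSeq start site on GRCm38.p6, 5′ to 3′, at chr6:29059971-29060270, chr16:23146286-23146585, chr8:3655520-3655819 and chr2:157559828-157560127, all on the forward strand. Capitals mark the letters of 5 motifs searched on both strands, which were the TATA box (letters TATAA), the CCAAT box, the GC box (letters GGGCGG), the core of C/EBP sites (letters TTGCNNAA) and the core of nuclear receptor sites (letters AGGTCA).
Lep: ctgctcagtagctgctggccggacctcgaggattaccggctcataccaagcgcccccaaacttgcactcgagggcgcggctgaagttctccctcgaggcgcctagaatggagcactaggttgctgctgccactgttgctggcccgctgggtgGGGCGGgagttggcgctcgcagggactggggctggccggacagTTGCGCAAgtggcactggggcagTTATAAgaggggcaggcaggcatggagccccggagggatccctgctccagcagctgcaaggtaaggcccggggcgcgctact
Adipoq: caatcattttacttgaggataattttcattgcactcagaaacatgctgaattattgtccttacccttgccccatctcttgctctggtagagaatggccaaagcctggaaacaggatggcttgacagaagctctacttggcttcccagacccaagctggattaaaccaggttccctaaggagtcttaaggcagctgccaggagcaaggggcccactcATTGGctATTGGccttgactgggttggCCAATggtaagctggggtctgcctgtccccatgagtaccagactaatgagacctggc
Retn: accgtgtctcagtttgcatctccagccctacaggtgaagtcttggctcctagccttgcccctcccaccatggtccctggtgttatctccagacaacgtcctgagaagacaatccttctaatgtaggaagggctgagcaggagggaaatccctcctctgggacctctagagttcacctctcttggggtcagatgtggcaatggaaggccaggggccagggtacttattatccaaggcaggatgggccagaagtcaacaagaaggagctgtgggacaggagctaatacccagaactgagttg
Nnat: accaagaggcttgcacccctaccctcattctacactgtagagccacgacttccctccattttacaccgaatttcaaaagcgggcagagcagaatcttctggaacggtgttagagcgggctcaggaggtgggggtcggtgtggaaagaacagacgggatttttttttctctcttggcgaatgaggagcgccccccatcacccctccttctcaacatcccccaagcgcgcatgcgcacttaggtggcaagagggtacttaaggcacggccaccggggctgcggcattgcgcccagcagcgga

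The Lep promoter held a TATA box 31 bases before the start site, a GC box 98 bases before it, and a C/EBP core, which reads the same on both strands there, 55 bases before it. Its TATA box overlaps the same letters on the reverse strand, so that 6 bases are in capitals. In the Adipoq promoter there were 3 CCAAT boxes, on the reverse strand at -34 and -27 and on the forward strand at -7. None of the 5 motifs was found in the Retn or Nnat window. Over the 32817 RefSeq windows of this length, the TATA box was present in 24.9%, the CCAAT box in 37.4%, the GC box in 35.6%, the C/EBP core in 10.8% and the nuclear receptor core in 16.3%. The windows also differed in CpG dinucleotides, with 19 in Lep and 17 in Nnat against 2 in Retn and 0 in Adipoq, where the median window held 7. Windows were also at hand for Plin1, with the C/EBP core at -187 and -58, and for 3 start sites of Pparg, of which the first 2 held the nuclear receptor core, at -28 and -9. In all, 6 of the 8 genes matched an entry, and Fabp4 and Lpl did not. These matches are a description of letters in the windows.

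The table held between 18130441 and 21498200 counts per library, so that 3 counts, taken as the floor of detection, were 0.140 to 0.165 CPM (counts scaled to a common library size, with TMM normalization). All 8 genes were above this floor in all 8 libraries, and all 8 passed the filter on low counts that kept 17182 genes for testing. The labelled tissue was checked by smooth muscle genes, of which 9 summed to between 2020 and 10700 CPM. A list of 20 other adipocyte identity genes, none of them a member, summed to between 10400 and 15600 CPM, and none of the 20 was at the floor in every library. Fat cell transcripts were thus measured in every library. AngII+3W replicate 1 stood apart by 8 skeletal muscle genes, which summed to 2480 CPM there and to between 5.64 and 74.4 CPM in the other libraries.

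Members differed widely in level. Per kilobase of the median annotated transcript, the median over the 8 libraries was 3830 CPM for Fabp4, 658 for Adipoq, 646 for Plin1, 601 for Lpl, 124 for Pparg, 83.4 for Retn, 10.4 for Lep and 4.27 for Nnat. The ranges of Adipoq (593 to 789 CPM per kilobase), Plin1 (493 to 738) and Lpl (497 to 915) overlapped, and with the longest transcript in place of the median one their order became Lpl (601), Adipoq (466) and Plin1 (297). Fabp4 stayed highest and Nnat lowest on either length. Fabp4 ranked 17th and Lpl 21st among the genes tested by median CPM. On this scale the genes of lipid handling were therefore more abundant than any of the 3 adipokines other than adiponectin, and the leptin transcript was rare.

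The fold between the highest and the lowest library separated the members further. It was 1.33 for Adipoq, 1.5 for Plin1, 1.63 for Pparg, 1.67 for Fabp4, 1.84 for Lpl, 2.12 for Retn and 3.77 for Lep. Among the 9760 genes with a median of at least 10 CPM, 73.9% had a larger fold than Adipoq and 4.36% a larger one than Lep. Nnat, which lies below that level, had a fold of 9.89. It is a description, since its highest library was of CTRL and its lowest of AngII+2W, the groups whose comparison chose Nnat. Adiponectin was thus among the steadier transcripts of the tissue and leptin among the more variable, while the median fold over these genes was 1.48.

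**Figure D1:**
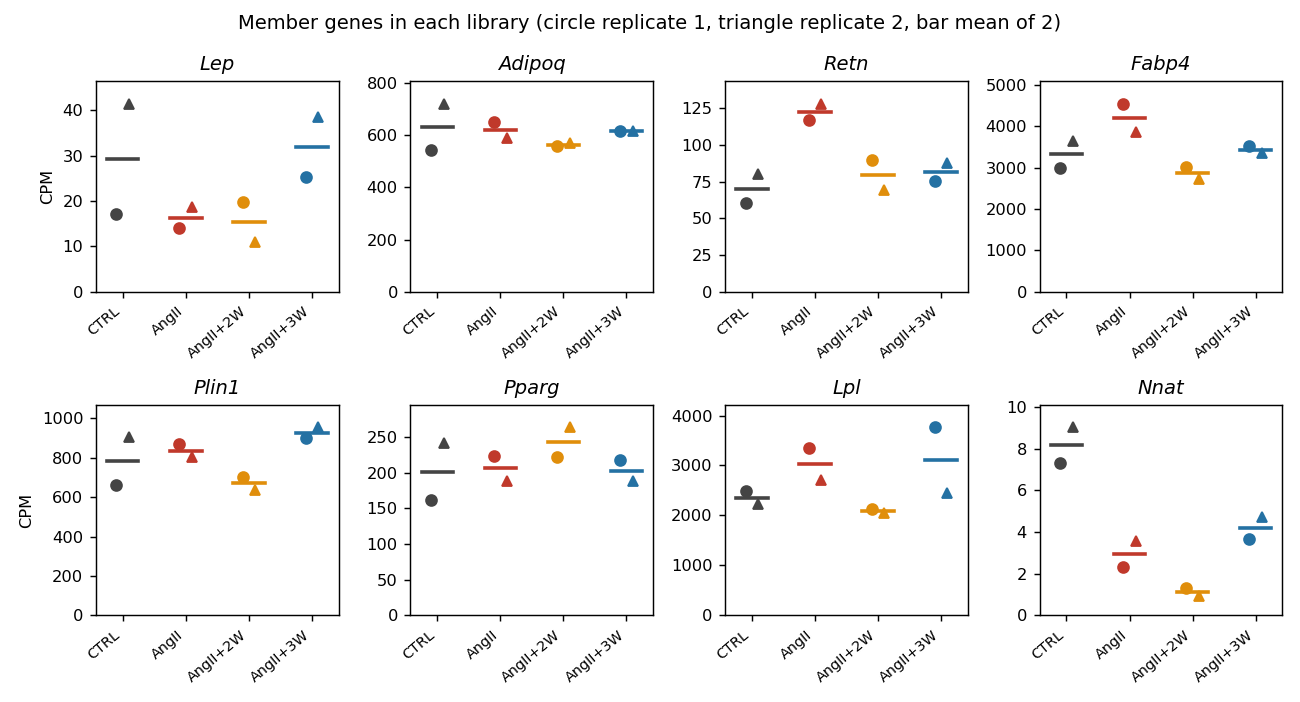
Level of each of the 8 genes in each library, in CPM from 0, with replicate 1 as a circle, replicate 2 as a triangle and the mean of the 2 libraries as a bar. Adipoq stays between 543 and 722 CPM in all groups, the AngII libraries of Retn lie above all others, and Nnat lies highest in CTRL and lowest in AngII+2W.

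At the end of the infusion, none of the 7 genes chosen by function passed an FDR of 0.05 against CTRL in edgeR's quasi-likelihood test, where 5.1% of all genes tested did. Of the 7, only Retn had an unadjusted p below 0.05. DESeq2 called 1 of the 7, again Retn, and 1551 of all genes. Of these 7 genes, 5 were higher and 2 lower in AngII by sign, with a median log2 fold change of 0.09 against -0.008 over all genes. The libraries of the groups did not overlap for 3 of the 7 (Retn, Fabp4 and Lpl, all higher in AngII), a share to be read against 49.2% of all genes. The share of members past the threshold, 0 of 7, and that without overlap were thus no larger than in the table as a whole.

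Pparg was at 162 and 241 CPM in CTRL, at 223 and 189 in AngII, at 222 and 264 in AngII+2W and at 218 and 188 in AngII+3W. Both CTRL libraries enclose all AngII and AngII+3W values, so that the groups overlap. Its log2 fold change was 0.03 in AngII against CTRL (95% interval -0.46 to 0.53, FDR = 0.954) and 0.01 in AngII+3W against CTRL (-0.48 to 0.50, FDR = 0.991). As folds, these intervals run from 0.727 to 1.44 and from 0.715 to 1.42.

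Lpl was at 2493 and 2224 CPM in CTRL, at 3355 and 2702 in AngII, at 2133 and 2045 in AngII+2W and at 3765 and 2457 in AngII+3W. The highest value was that of AngII+3W replicate 1, the library with skeletal muscle transcripts, in which 8 cardiac muscle genes also summed to 5270 CPM (9.50 to 4590 CPM in the other libraries). The cardiac sum of 4590 CPM was that of CTRL replicate 1, in which Lpl was at 2493 CPM. Muscle is the other main site of lipoprotein lipase. The log2 fold change of Lpl in AngII+3W against CTRL was 0.40 (standard error 0.249, FDR = 0.557), and it was 0.06 without that library. The part of muscle transcripts in this value was not tested. In AngII against CTRL the log2 fold change was 0.36 (standard error 0.249, FDR = 0.483).

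Fabp4 was at 2999 and 3637 CPM in CTRL, at 4548 and 3860 in AngII, at 3004 and 2723 in AngII+2W and at 3515 and 3344 in AngII+3W. The AngII libraries were the 2 highest of the 8. Against CTRL the log2 fold change in AngII was 0.34 (standard error 0.206, FDR = 0.418), and AngII+2W differed from AngII by -0.55 (95% interval -1.03 to -0.07, FDR = 0.258). FABP4 is made by capillary endothelium and by macrophages as well as by adipocytes. For the 9 capillary endothelium genes listed here the median log2 fold change in AngII was -0.04, with 0 called by edgeR, 4 at an unadjusted p below 0.05 and 2 called by DESeq2. The macrophage sums, given with Retn, were highest in AngII, and their part in the Fabp4 values was not tested.

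Plin1, a marker that is close to specific for adipocytes, was at 663 and 907 CPM in CTRL, at 870 and 802 in AngII, at 704 and 638 in AngII+2W and at 900 and 955 in AngII+3W. The AngII values lie between those of CTRL, and the AngII+3W values lie above those of AngII+2W without overlap. Against CTRL its log2 fold change was 0.09 (FDR = 0.842) when the infusion ended and 0.24 (FDR = 0.640) 3 weeks later. At 3 weeks against 2 weeks after the infusion it was 0.47 (95% interval 0.03 to 0.90, FDR = 0.533).

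Adipoq was at 543 and 722 CPM in CTRL, at 653 and 589 in AngII, at 560 and 570 in AngII+2W and at 616 and 617 in AngII+3W. All 6 libraries of infused mice lie between the 2 CTRL libraries. The log2 fold change was -0.03 in AngII (95% interval -0.43 to 0.37, FDR = 0.954) and -0.04 in AngII+3W (-0.44 to 0.36, FDR = 0.949). Adiponectin had the narrowest intervals of the members, which bound the fold against CTRL to between 0.743 and 1.30 in AngII and between 0.738 and 1.29 in AngII+3W.

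The CTRL libraries of Lep held 17.2 and 41.5 CPM (353 and 882 counts), those of AngII 14.04 and 18.6 CPM (260 and 393 counts), those of AngII+2W 19.8 and 11.0 CPM (424 and 205 counts) and those of AngII+3W 25.4 and 38.5 CPM (472 and 716 counts). The CTRL libraries differed from each other by 2.41-fold, more than any other pair of replicates among the 8 genes. The log2 fold change in AngII against CTRL was -0.84 (standard error 0.444, FDR = 0.345), and it was -0.08 without CTRL replicate 2. Both AngII+3W libraries lie above those of AngII and of AngII+2W. The log2 fold change of AngII+3W was 0.97 (95% interval -0.07 to 2.00, FDR = 0.310) against AngII and 1.05 (0.01 to 2.08, FDR = 0.559) against AngII+2W, and neither passed the threshold.

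Retn came nearest to the threshold. Its level was 60.5 and 80.1 CPM in CTRL (1242 and 1702 counts), 116.7 and 128.2 CPM in AngII (2161 and 2705 counts), 89.9 and 69.1 at 2 weeks and 75.2 and 87.7 at 3 weeks after the infusion. Both AngII libraries lie above the other 6. The mean was 70.3 ± 13.8 CPM in CTRL and 122 ± 8.13 CPM in AngII (SD, n = 2 each), 1.74-fold higher (95% interval 1.29 to 2.36), or 0.80 on the log2 scale (standard error 0.189, FDR = 0.0556). It was called in 5 of 15 alternative settings: with no filter beyond 1 count (FDR = 0.0379), with DESeq2 (FDR = 0.00316), with only CTRL and AngII fitted (FDR = 0.0450), and without AngII+3W replicate 1 (FDR = 0.0406) or replicate 2 (FDR = 0.0423). These settings called more genes over the table as a whole, so that the calls are not particular to Retn. With no filter beyond 1 count, with DESeq2 and with only CTRL and AngII fitted, 1132, 1551 and 1149 genes were called. The reported fit called 877, and the fits without either AngII+3W library also called more than that. Over the fits without 1 library the log2 fold change of Retn stayed between 0.61 and 1.01.

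After the infusion Retn was lower by sign than in AngII, by -0.62 (95% interval -1.06 to -0.19, FDR = 0.182) in AngII+2W and by -0.59 (-1.02 to -0.15, FDR = 0.166) in AngII+3W. Against CTRL it differed by 0.21 (-0.22 to 0.65, FDR = 0.683) in AngII+3W. A list of 8 macrophage genes moved with the AngII group, with a summed level of 649 to 1080 CPM there, of 249 to 336 in CTRL, of 439 to 447 at 2 weeks and of 217 to 367 at 3 weeks after the infusion. All 8 macrophage genes were higher in AngII than in CTRL by sign, and 4 of them (Cd68, Adgre1, Fcgr1 and Mrc1) rose at an FDR below 0.05. With the replicate number as a term (replicate block) the FDR was 0.0601 for Fcgr1 and 0.0616 for Mrc1, while Cd68 (0.0257) and Adgre1 (0.0298) stayed below the threshold. Whether macrophages take part in the resistin values was not tested.

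Against CTRL in AngII+3W, 0 of the 7 genes passed an FDR of 0.05 with edgeR (0.285% of all genes tested), 0 had an unadjusted p below 0.05, and DESeq2 called 0. For 0 of the 7 were the groups apart, against 38.1% of all genes. Without AngII+3W replicate 1, 0 of the 7 were called as well. The smallest FDR among the 7 was 0.557 (Lpl), and the widest 95% interval, that of Lep, reached 1.01 to either side on the log2 scale. In AngII+2W against CTRL, 0 of the 7 were called (0% of all genes, where 1838 had an unadjusted p below 0.05 and DESeq2 called 359), and the groups were apart for 1 (43.8%), Lpl. Nothing is read from that comparison, since it served to choose Nnat. Its log2 fold changes for the 7 genes lay between -0.93 (Lep) and 0.27 (Pparg).

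**Figure D2:**
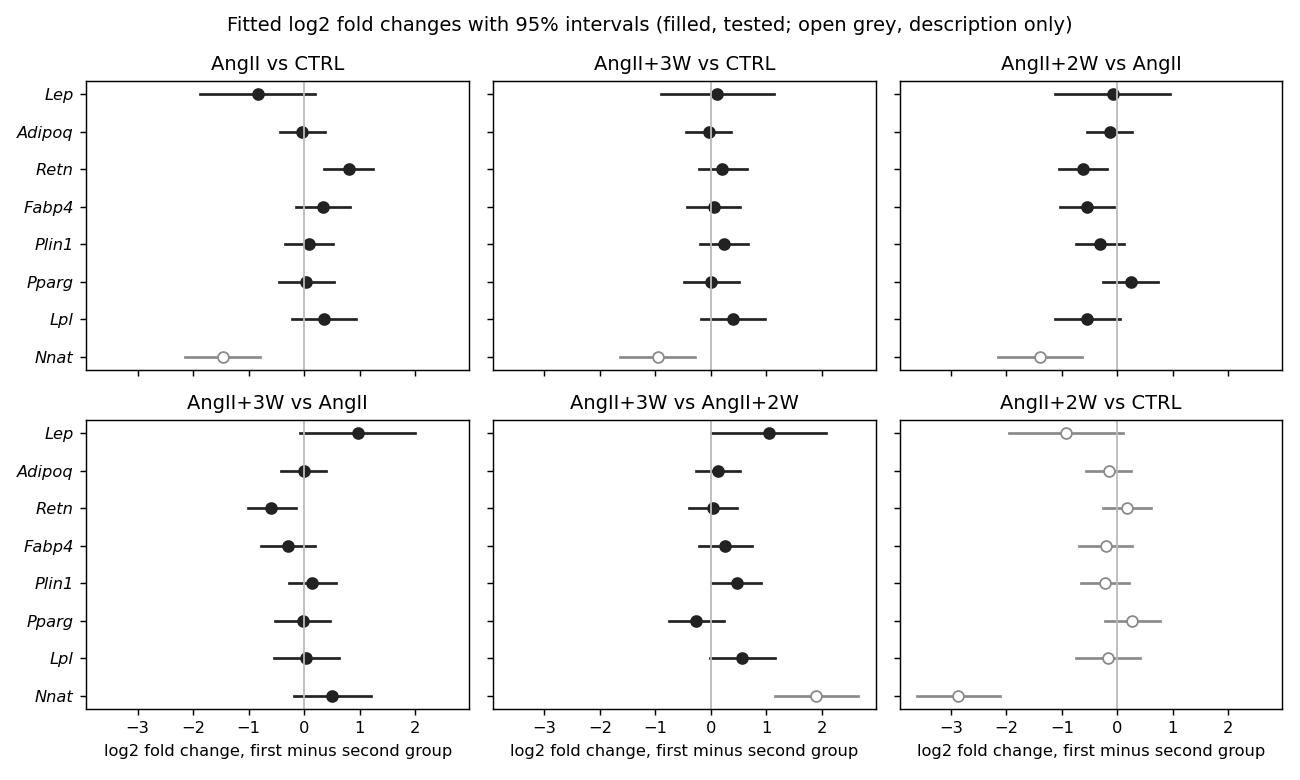
Fitted log2 fold change (first minus second group) of each gene with its 95% interval in the 6 comparisons, filled where a test is reported and open grey where the value is a description. Retn in AngII against CTRL (0.80, interval 0.36 to 1.24) is the tested interval farthest from 0, and those of Lep are the widest.

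Between time points, AngII+2W and AngII differed in 0 of the 7 genes with edgeR (0.163% of all genes). An unadjusted p below 0.05 was found for 2 of the 7 (Retn and Fabp4). DESeq2 called 1 of the 7 (Fabp4, FDR = 0.0221) and 645 of all genes. The groups were apart for 5 of the 7 (54.2% of all genes), Adipoq, Retn, Fabp4, Plin1 and Lpl, all of them lower in AngII+2W, and the median log2 fold change of the 7 was -0.32. Between AngII+3W and AngII, 0 of the 7 were called (1.61% of all genes), 1 had an unadjusted p below 0.05 (Retn), DESeq2 called 0, and 4 were apart (49.1%). Between AngII+3W and AngII+2W, 0 were called (0% of all genes, where 1518 had an unadjusted p below 0.05 and DESeq2 called 228), and 2 had an unadjusted p below 0.05 (Lep and Plin1). DESeq2 called 0 of the 7 there. Here 6 of the 7 were apart (40.5% of all genes), of which Pparg was lower and the other 5 were higher in AngII+3W by sign. The comparisons that share a group share its libraries.

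Nnat (chromosome 2, 157560078 to 157562522, forward strand, GRCm38) was the rarest member, with 150 and 192 counts in CTRL and 43 and 75 in AngII. At 2 weeks after the infusion it had 28 and 17 counts, and at 3 weeks 68 and 88. In CPM these were 7.31 and 9.03, 2.32 and 3.55, 1.31 and 0.913, and 3.66 and 4.73. The libraries of the 4 groups form 4 separate ranges, with CTRL highest and AngII+2W lowest. As a description, the group mean was 8.17 CPM in CTRL, then 2.94 in AngII and, after the infusion, 1.11 in AngII+2W and 4.19 in AngII+3W, which is 0.361, 0.137 and 0.513 times the CTRL level by the fitted fold.

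A test of Nnat was made only between AngII+3W and AngII, the groups that were not compared when it was chosen, although all 8 libraries gave the estimate of the spread in both comparisons. The log2 fold change was 0.51 (standard error 0.298, 95% interval -0.18 to 1.2, FDR = 0.413 with edgeR's quasi-likelihood test), so that the difference, although without overlap, did not pass the threshold. With the libraries of these 2 groups alone in the edgeR fit it was 0.51 (standard error 0.326, FDR = 0.502). Nnat lies within Blcap on the opposite strand, with 0 exonic bases in common, and shares 87 exonic bases with the miRNA gene Gm23134, also on the opposite strand. Whether the counting used strand is not given in the sources used here. Blcap, which is imprinted in brain, had between 43.0 and 76.6 CPM, with its lowest libraries in AngII (48.1 and 43.0 CPM) and not in AngII+2W (51.6 and 63.5 CPM).

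Other imprinted genes were listed beside Nnat. Of 20 tested, 2 rose in AngII against CTRL and 0 fell at an FDR below 0.05, and the list median was -0.26. The 2 were Mest, an enzyme-like protein whose transcript marks expanding fat, from 4.29 and 5.46 to 13.8 and 21.7 CPM (log2 fold change 1.86, FDR = 0.0150), and Grb10, an adaptor that dampens insulin signalling, from 73.3 and 54.0 to 122 and 152 CPM (1.10, FDR = 0.0229). Both fell again in AngII+3W against AngII, with log2 fold changes of -1.51 and -1.22 (FDR = 0.0428 and 0.0324). With the replicate block these 2 FDR values were 0.0537 and 0.0510. By sign, 9 of the 20 genes were higher and 11 were lower in AngII than in CTRL. Nnat, given here as a description, was lower in AngII, as these 11 were and Mest and Grb10 were not.

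To set the members against the amount of fat in a library, the log2 level of each was taken relative to the mean log2 level of the 20 adipocyte identity genes. In CTRL replicate 2, 19 of these 20 genes were higher than in CTRL replicate 1, with a median difference of 0.56 on the log2 scale, as were 7 of the 8 members, while 48.7% of all genes were. Relative to the list, the standard deviation over the 8 libraries went from 0.13 to 0.07 for Adipoq, from 0.23 to 0.14 for Plin1, from 0.24 to 0.19 for Fabp4 and from 0.23 to 0.19 for Pparg. It changed less for Retn (0.37 to 0.34), Lep (0.67 to 0.60), Nnat (1.10 to 1.09) and Lpl (0.31 to 0.31). Adiponectin and perilipin 1 thus followed the other fat genes from library to library most closely.

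Relative to the list, Retn was still higher by 0.74 on the log2 scale in AngII than in CTRL, with -0.21 and -0.33 in CTRL (deviations from its mean over the 8 libraries) and 0.30 and 0.64 in AngII. Lep relative to the list was 0 and 0.74 in CTRL and -0.73 and -0.12 in AngII, again with a wide gap between the CTRL libraries. Nnat remained at 1.45 and 1.22 in CTRL and at -1.19 and -1.63 in AngII+2W. These relative levels are descriptions.

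**Figure D3:**
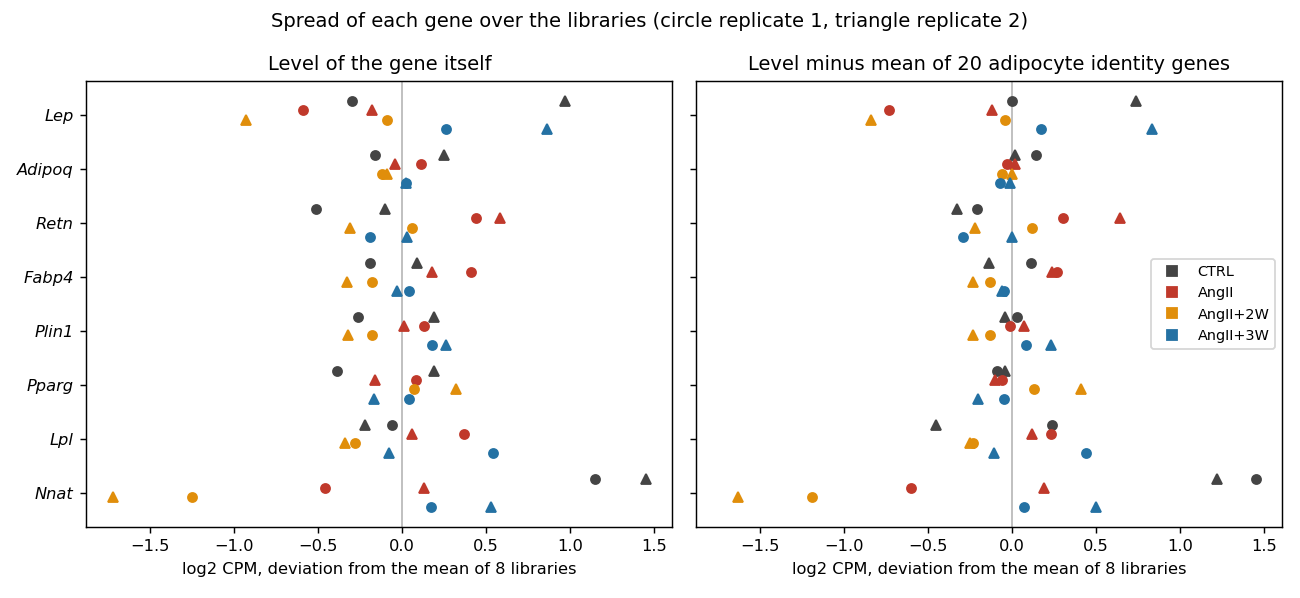
Deviation of each gene from its mean over the 8 libraries (log2 CPM), for the gene itself (left) and after subtracting the mean of 20 adipocyte identity genes (right), with circles for replicate 1, triangles for replicate 2 and colours for groups. Adipoq draws together on the right (standard deviation 0.07), while the AngII libraries of Retn stay on the high side and Nnat keeps its spread.

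Correlations between members over the 8 libraries, which share their depth and their fat content, are given as a description. Adipoq was most like Plin1 (Pearson r = 0.77 of log2 CPM), and Retn was most like Fabp4 (0.75). Lep was most like Plin1 (0.73), and Pparg had no member above 0.40. Among all genes tested, those closest to Adipoq were Gm12713 (0.990), Bend3 (0.954), Slc25a35, 2310033P09Rik and Mrpl45. For Lep they were Tmem191c (0.987), Preb (0.978), Gm12481, Map2k5 and Nupl2, and for Nnat 5830417I10Rik (0.973), Tom1 (0.962), Rrp8, Tsr3 and Srsf2. None of these 15 genes is on the adipocyte identity list. They were picked as the highest r among 17182 genes over only 8 libraries. Gm12713, Tmem191c and Gm12481 were rare, with means of 0.541, 1.48 and 1.66 CPM.

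The summed adipocyte identity list did not separate any infused group from CTRL, whose libraries spanned 10400 to 15600 CPM. Among the infused groups, the list sums of AngII+2W (11600 to 11800 CPM) lay below those of AngII (12700 to 14600 CPM) and AngII+3W (12400 to 13300 CPM). In AngII against CTRL, 0 of its 20 genes were called by edgeR, 5 had an unadjusted p below 0.05, DESeq2 called 3, and the median was 0 (range -0.81 to 1.07). Its most abundant genes were Gpd1, which makes the glycerol backbone of triglyceride, at 1540 and 2700 CPM in CTRL and 3190 and 2560 CPM in AngII, and Pck1, which feeds the same step, at 1710 and 2200 CPM in CTRL and 1700 and 1460 CPM in AngII. Its median was -0.04 at 2 weeks and 0.06 at 3 weeks after the infusion, against CTRL. In both comparisons edgeR called 0 of the 20, with 4 and 1 at an unadjusted p below 0.05, and DESeq2 called 1 and 0. The list median was -0.11 in AngII+2W against AngII and 0.16 in AngII+3W against AngII+2W. There edgeR also called 0 of the 20, with 6 and 5 at an unadjusted p below 0.05, and DESeq2 called 1 and 1.

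**Figure D4:**
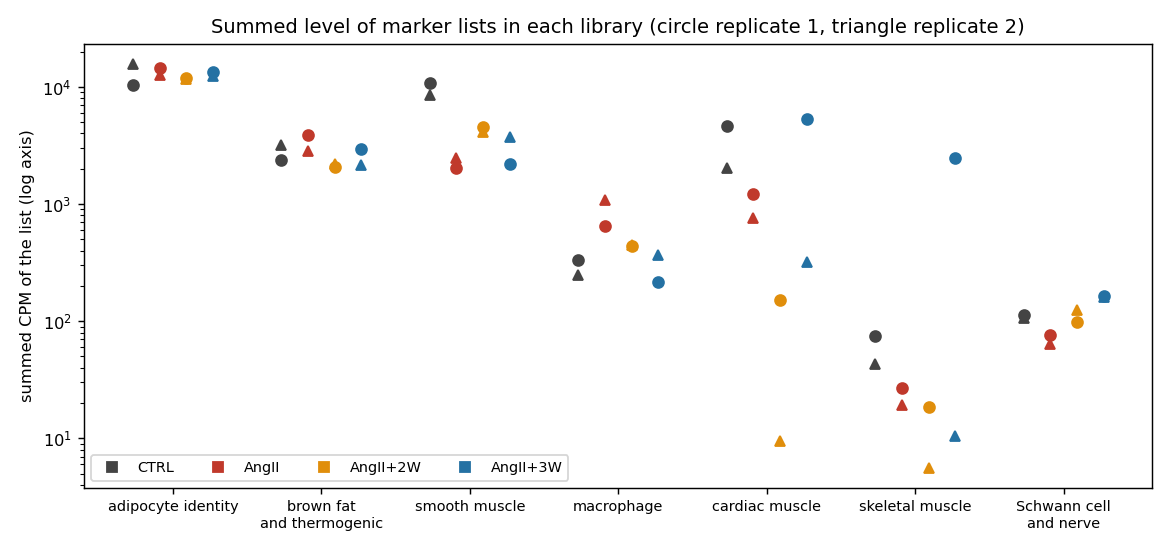
Summed CPM of 7 marker lists in each library on a log axis, with circles for replicate 1, triangles for replicate 2 and colours for groups. The adipocyte identity sums lie between 10400 and 15600 CPM in all groups, while smooth muscle sums lie highest in CTRL (8450 to 10700 CPM), macrophage sums highest in AngII, and the skeletal muscle sum of 1 AngII+3W library stands apart.

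Among 12 brown fat and thermogenic genes, 1 rose and 1 fell in AngII. Elovl3, a fatty acid elongase of cold-exposed brown fat, went from 3.22 and 3.95 CPM in CTRL to 48.0 and 26.5 CPM in AngII (log2 fold change 3.37, standard error 0.367, FDR = 0.00759), with 16.9 and 15.5 CPM in AngII+2W and 15.2 and 8.76 CPM in AngII+3W. Prdm16, a coregulator of brown and beige fat identity, went from 134 and 128 CPM to 69.0 and 77.3 CPM (-0.84, standard error 0.185, FDR = 0.0451). Ucp1, the uncoupling protein of brown fat, was at 761 and 1120 CPM in CTRL, at 1880 and 1330 in AngII, at 409 and 455 in AngII+2W and at 1220 and 680 in AngII+3W, and its log2 fold changes of 0.77 in AngII against CTRL (FDR = 0.233) and -1.90 in AngII+2W against AngII (FDR = 0.0674) did not pass the threshold. The list as a whole had a median of -0.11, so that its genes took both directions.

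Of 10 other adipokines tested (12 listed), 1 rose and 1 fell in AngII. Lcn2, lipocalin 2, an iron-carrier-binding protein made by fat and by neutrophils and macrophages, was at 0.292 and 0.706 CPM in CTRL, at 15.8 and 9.10 in AngII, at 1.17 and 0.752 in AngII+2W and at 0.968 and 0.537 in AngII+3W. Its log2 fold change was 4.62 (standard error 0.504, FDR = 0.00759) in AngII against CTRL. The CTRL values of Lcn2 lay near the floor of 0.143 CPM, so that the size of this change rests on few counts there. Against AngII the log2 fold change was -3.68 in AngII+2W (FDR = 0.0476; a term for the replicate number made it 0.0629) and -4.04 in AngII+3W (FDR = 0.0208). Retnla, a relative of resistin secreted by macrophages and fat, fell from 27.0 and 16.7 CPM in CTRL to 8.75 and 8.39 CPM in AngII (log2 fold change -1.35, FDR = 0.0364).

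The 4 receptors of leptin and adiponectin that were listed (Lepr, Adipor1, Adipor2 and Cdh13) gave 0 calls in AngII against CTRL by edgeR or DESeq2. Of the 4, 1 had an unadjusted p below 0.05 with edgeR (Cdh13, log2 fold change -0.37, FDR = 0.143). In AngII+3W against CTRL, Cdh13 had -0.54 (FDR = 0.125), and DESeq2 called 1 receptor there, lower. Adipor2 had 633 and 647 CPM in CTRL and 706 and 550 CPM in AngII, and Adipor1 114 and 130 CPM in CTRL and 112 and 115 CPM in AngII. The leptin receptor was rare, with 4.6 to 6.99 CPM over the 8 libraries. For the receptors the list median was -0.20 in AngII, with all 4 lower by sign.

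Of 10 partners and regulators of Lpl tested, 1 fell in AngII and 0 rose. Angptl4, a secreted inhibitor that inactivates lipoprotein lipase in fat, went from 226 and 323 CPM in CTRL to 148 and 139 CPM in AngII (log2 fold change -0.94, standard error 0.199, FDR = 0.0408), with 254 and 325 CPM in AngII+2W and 151 and 152 CPM in AngII+3W. The AngII and AngII+3W libraries lie below the other 4, and in AngII+3W against CTRL the log2 fold change was -0.86 (FDR = 0.128). Gpihbp1, which carries the enzyme across capillary endothelium, had 28.0 and 47.8 CPM in CTRL and 34.8 and 38.7 CPM in AngII. Cd36, a fatty acid transporter, had a log2 fold change of 0.29 (FDR = 0.541). Vldlr went from 270 and 249 CPM in CTRL to 185 and 151 CPM in AngII (-0.63, FDR = 0.147). DESeq2 called 2 genes of this list in AngII against CTRL, both lower.

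The 21 partners of Pparg and other adipogenic factors gave 0 calls in AngII by edgeR or DESeq2, with 3 at an unadjusted p below 0.05, and a median of -0.09. Their most abundant genes, the corepressor Ncor1 (log2 fold change -0.18, FDR = 0.484) and Cebpa (0.13, FDR = 0.819), which acts with Pparg in adipocyte differentiation, had small fold changes. Of 7 other fatty acid binding protein and perilipin genes tested, 1 rose and 0 fell in AngII at an FDR below 0.05. By sign, 2 of them were higher and 5 lower, with a list median of -0.28. DESeq2 called 3 genes of this list, 2 higher and 1 lower. Fabp5, the relative of Fabp4 in skin, macrophages and endothelium, went from 30.2 and 46.6 CPM to 84.4 and 108 CPM (log2 fold change 1.32, standard error 0.214, FDR = 0.0189), where Fabp4 had 0.34. Plin2, the droplet protein of cells other than adipocytes, had 0.59 (FDR = 0.0966). Plin4, the most abundant gene of this list, went from 1270 and 1560 CPM in CTRL to 1020 and 846 CPM in AngII (-0.60, FDR = 0.140).

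Among 8 adipocyte progenitor genes, 1 rose in AngII, and all 8 were higher by sign with a median of 0.79. Ly6a (Sca-1), a surface marker of stromal progenitors that endothelium also carries, had a log2 fold change of 1.09 (standard error 0.166, FDR = 0.0170), and it fell in AngII+3W against AngII (-1.07, FDR = 0.0318, or 0.0501 in the fit with the replicate block). The macrophage sums given with Retn were also highest in AngII, as were Ly6a, Lcn2, Elovl3, Fabp5, Mest and Grb10, and their part in these values was not tested.

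**Figure D5:**
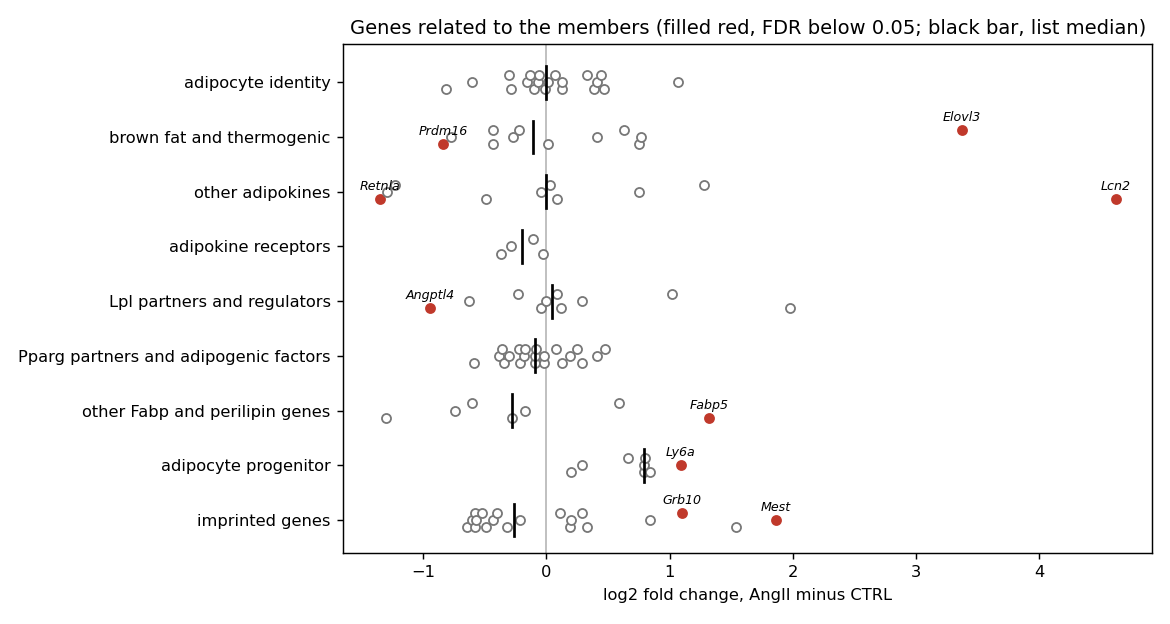
Log2 fold change (AngII minus CTRL) of each tested gene in 9 lists related to the members, filled red where the FDR was below 0.05, with a black bar at the list median. Medians lie between -0.28 and 0.05 except for the progenitor list (0.79). The called genes other than Grb10, among them Lcn2 at 4.62 and Elovl3 at 3.37, lie at the ends of their lists.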

How the data were processed

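RNA-sequencing of mouse aortic tissue was analysed from 8 libraries (2 per group), each given its group and replicate number by its label. The authors depleted ribosomal RNA, checked reads with FastQC and MultiQC, quantified them with Salmon against Ensembl cDNA sequences of GRCm38, and summed transcripts to genes. The deposited table holds these estimated counts as whole numbers, without normalization, and 0 of its columns were left unused. It holds no transcript lengths, so that length offsets were not applied.

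Genes kept by filterByExpr (17182) were tested with the quasi-likelihood F test of edgeR 4.0.16 in R 4.3.3, in its legacy form, with TMM normalization and all 8 libraries in 1 model (4 residual degrees of freedom). In each of 6 comparisons the two-sided p-values of these genes were corrected together after Benjamini and Hochberg (FDR, threshold 0.05). Intervals are 95% intervals of the fitted fold change. Log2 CPM used a prior count of 2. With 2 libraries in each group, exact permutation could reach a p of 0.33 at best, so that no such test is given. The labels do not say that replicates were prepared apart beyond the pooled mice, so that p-values measure the spread between these pools. The labels name no batch. The fits were tested on simulated data.

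The members and the gene lists were chosen with earlier results of these data known. Named are all members, the genes of each list past the threshold (at most 4) or, where fewer than 2 passed, its most abundant ones, other members of a list where a member's role called for it, and the 5 genes most like Adipoq, Lep and Nnat by Pearson r. Dnajb5, as the neighbour of Nnat by p, is outside this rule. Gene positions came from GENCODE annotation of GRCm38 (98.7% of identifiers matched), near-identical copies were searched with BLAST 2.17.0 (at 90% identity or more, no other gene matched more than 7.3% of a member's transcript), and promoters came from RefSeq. Alternatives were DESeq2's size factors, library totals alone, every gene with at least 1 count, DESeq2 1.42.0, the newer quasi-likelihood fit, fits of just the 2 groups at hand, the replicate number as a term, and leaving out each library in turn.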

Additional observations from a re-analysis of the deposited data

How the results depend on the processing

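The number of the 7 function-chosen genes called in AngII against CTRL was 0 in the reported fit and 1 (Retn) with no filter beyond 1 count, with DESeq2, and with only the 2 groups compared. Over the fits without 1 library it ranged from 0 to 1, and it was 1 without AngII+3W replicate 1 or replicate 2. In AngII+2W against AngII it was 0, and 1 (Fabp4) with DESeq2, which called 645 of all genes there. In the other comparisons and settings it was 0. Of 720 alternative values of the 48 fold changes, 685 stayed within 1 SD of the replicates and on the same side of the threshold. The sign changed in at least 1 fit without a library for 15 fold changes and in another setting for 2, all of them of 0.23 or less on the log2 scale. Without 1 library, the log2 fold change of Lep against CTRL ranged from -1.34 to -0.08 in AngII, from -1.43 to -0.15 in AngII+2W and from -0.38 to 0.88 in AngII+3W.

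The number of all genes called in AngII against CTRL, 877, was between 0 (without AngII replicate 2) and 1504 (without AngII+3W replicate 1), and calls of list genes were lost in some of these fits. Elovl3, Lcn2 and Mest were called in 6 of the 8 fits without 1 library, and Prdm16, Angptl4 and Grb10 in 2. DESeq2 called 1551 genes. For AngII+3W against AngII, 276 genes were called, and 3 without AngII replicate 2.

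Same-numbered replicates came from different mice, and over 15159 genes their deviations correlated between groups by 0 to 0.37. With the replicate block, 0 of the 7 genes were called in each comparison. Levels relative to the adipocyte list differ with the list's 6 most abundant genes alone by more than the replicate spread for 9 values, for example in Pparg (0.53 in place of 0.33, AngII+2W minus CTRL). With 2 libraries per group, a gene that was not called may still differ by any fold change within its interval. Lep, Retn and Nnat were the rarest members. Intervals cover the spread between these pools.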
